A study of Mus musculus with 18 samples.

Results

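The 10 genes described here, which late male germ cells use to pack sperm chromatin and to build the sperm tail, were read in 18 libraries of mice with and without Pcgf6: Prm1, Prm2, Prm3, Tnp1, Tnp2, Smcp, Odf1, Odf2, Akap4 and Tcp11. They were chosen by name, 10 of the 52636 genes listed for each library, and all 10 were matched. Poly-A RNA came from 3 tissues (testis, liver, brain) of C57BL/6 adult males, 8 weeks old. Each tissue had 3 wild type (WT) libraries, numbered 1 to 3, and 3 knockout (KO) libraries, numbered 4 to 6. The labels call the knockout Pcgf6 KO and do not give its allele, whether it is whole-body, or whether a library is 1 animal or a pool; p values measure the spread between these libraries. Pcgf6 is a ring finger protein of a variant Polycomb repressive complex, and the series compared the tissues of mice with and without it.

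When a round spermatid elongates, its histones are replaced first by transition proteins (Tnp1, Tnp2) and then by protamines (Prm1, Prm2), small basic proteins that condense the sperm nucleus. In the same weeks the cell builds the flagellum, with outer dense fibres (Odf1, Odf2) along the axoneme, a mitochondrial sheath in the midpiece (Smcp) and a fibrous sheath in the principal piece (Akap4). Many of these mRNAs are made in round spermatids, stored and translated later. In bulk tissue, fewer cells of a type and less RNA per cell cannot be told apart.

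Prm1, Prm2, Prm3 and Tnp2 are neighbours on the minus strand of mouse chromosome 16 (mm10), where the 4 genes span chr16:10787936-10796886, or 8951 bases, and no other listed gene lies within. The other members lie apart, Tnp1 on chromosome 1 (minus strand), Odf2 on 2, Smcp on 3, Odf1 on 15, Tcp11 on 17 and Akap4 on X. The stretches just before the transcription starts are printed here as a description. Their part in the levels of these genes was not tested. RefSeq promoter windows (GRCm38.p6) were matched for 9 of the 10 members. Both strands of the 250 bases before each start were searched for TGACGTCA, the full cyclic AMP response element that CREM, a transcription factor of round spermatids, is known to bind, and for TGACNTCA, which allows any base at the fifth position. The second motif was chosen after the sequences had been seen, and it includes the first. No member held TGACGTCA, which occurred in 1.55% of all 32851 windows. TGACNTCA occurred in 4 of the 9 genes, beside 7.49% of all windows, although genes with several starts have several windows. In the 120 bases before a start, printed 5′ to 3′ on the strand of the gene, capitals mark the match. In Prm1 it begins at position -64 from the start, in Prm3 at -60, in Tnp1 at -94 and in Akap4 at -35. The capitals of Prm1 hold TGACNTCA on the printed strand. Those of Prm3, Tnp1 and Akap4 hold its reverse complement, so these matches lie on the opposite strand. Prm2 and Tnp2, from the same cluster as Prm1, are given for comparison and hold no match. The gene model of Prm1 in the files reaches farther upstream than this RefSeq start, as do those of Prm2 and Tnp1.
Prm1, chr16:10796824-10796943, minus strand: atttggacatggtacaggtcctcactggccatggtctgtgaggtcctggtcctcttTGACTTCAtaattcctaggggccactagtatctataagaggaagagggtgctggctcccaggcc
Prm3, chr16:10790915-10791034, minus strand: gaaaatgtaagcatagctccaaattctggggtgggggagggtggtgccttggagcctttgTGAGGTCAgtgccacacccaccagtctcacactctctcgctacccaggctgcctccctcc
Tnp1, chr1:73015900-73016019, minus strand: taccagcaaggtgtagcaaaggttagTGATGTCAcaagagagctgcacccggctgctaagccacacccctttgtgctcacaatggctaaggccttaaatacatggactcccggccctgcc
Akap4, chrX:7067395-7067514, plus strand: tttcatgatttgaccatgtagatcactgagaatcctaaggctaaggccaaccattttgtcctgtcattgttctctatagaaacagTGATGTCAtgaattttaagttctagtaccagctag
Prm2, chr16:10792106-10792225, minus strand: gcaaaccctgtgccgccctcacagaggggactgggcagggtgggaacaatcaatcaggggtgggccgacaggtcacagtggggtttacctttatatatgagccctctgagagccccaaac
Tnp2, chr16:10788656-10788775, minus strand: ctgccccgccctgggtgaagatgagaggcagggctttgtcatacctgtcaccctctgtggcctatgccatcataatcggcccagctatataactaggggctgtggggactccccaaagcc

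Levels within a tissue are given as the deposited FPKM (fragments scaled by gene length and library size), and levels across tissues as CPM, reads of a gene scaled to the total reads of its library. Testis libraries held 20098777 to 23335596 reads, liver libraries 18990130 to 23529098 and brain libraries 20759022 to 23183662. Pcgf6 itself checked the labels: in testis it stood at 20.4, 19.9 and 22.3 FPKM in WT 1 to 3 and at 10.6, 9.58 and 9.58 FPKM in KO 4 to 6. Its testis log2 fold change was -1.06 ± 0.09 (SE) with a limma adjusted p of 0.0638, and reads of the gene remained in the KO. In liver Pcgf6 was at 4.91 ± 0.79 FPKM in WT and 1.92 ± 0.65 in KO (log2 -1.35 ± 0.24, adjusted p 0.485). In brain the check was weaker, at 5.02 ± 0.38 and 3.98 ± 0.60 FPKM (log2 -0.34 ± 0.12, adjusted p 1.00), with KO at 79.3% of WT and no overlap. Tissue markers matched the labels, with 9 hepatocyte genes led by Alb at 84174 to 99406 summed CPM in liver and 10 neuron and glia genes led by Mbp at 10388 to 12282 in brain. Testis library WT 3 stood apart from the others: limma gave it a quality weight of 0.196, against 0.873 to 2.31 for the other 5. All 8 genes of an epididymis list had reads in testis, and they summed to 9.51, 42.5 and 281 CPM in WT 1 to 3 and to 5.24, 6.08 and 1.85 CPM in KO 4 to 6. Crisp1, 1 of these 8 genes, gave 228 of the 281 CPM in WT 3. Values with and without WT 3 are therefore given below.

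By FPKM, Prm1 was the most abundant of the 10 mRNAs in testis and Prm3 the least. Prm1, the protamine common to mammalian sperm, stood at 7429, 8018 and 5938 FPKM in WT 1 to 3 and at 9817, 7759 and 6631 FPKM in KO 4 to 6. The group means were 7128 ± 1072 and 8069 ± 1616 FPKM (SD, n = 3 each), and the groups overlapped. Prm2, the protamine that is cleaved from a precursor as it is deposited, had 5157, 4935 and 3303 FPKM in WT and 6010, 4879 and 4378 FPKM in KO. Library WT 3 was the lowest and KO 4 the highest for both genes. Prm3, a neighbour of both that encodes an acidic protein, was measured at 271, 280 and 221 FPKM in WT and 354, 238 and 260 FPKM in KO.

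For both transition proteins, too, WT 3 was the lowest library and KO 4 the highest. Tnp1 was listed at 4592, 4259 and 2755 FPKM in WT and at 5121, 3385 and 3109 FPKM in KO, so that the group means, 3869 ± 979 and 3872 ± 1091 FPKM, were nearly equal. Tnp2 had 7229, 7208 and 5332 FPKM in WT and 8582, 6635 and 5975 FPKM in KO. An antisense gene, 1700027A15Rik, overlaps Tnp1 and averaged 250 FPKM over the testis libraries. Whether counting used the strand is not given in the sources used here, so reads from their shared part cannot be assigned with certainty.

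Genes of the sperm tail were lower than Prm1, Prm2, Tnp1 and Tnp2, with the same libraries at the extremes. Smcp, a cysteine-rich protein of the mitochondrial capsule, had 1357, 1342 and 950 FPKM in WT and 1571, 1324 and 1264 FPKM in KO. Odf1, a major outer dense fibre protein, had 1041, 979 and 693 FPKM in WT and 1184, 978 and 959 FPKM in KO. Odf2, which also serves centrioles and cilia of other cells, had 349, 340 and 283 FPKM in WT and 398, 341 and 337 FPKM in KO. In all 3 genes WT 3 lay below the other 5 libraries and KO 4 above them. Akap4, the main fibrous sheath scaffold and an X-linked gene, was measured at 466, 433 and 298 FPKM in WT and at 491, 434 and 436 FPKM in KO. Tcp11, a testis protein of the sperm flagellum, had 966, 970 and 816 FPKM in WT and 1121, 963 and 959 FPKM in KO. A processed pseudogene, 4930526A20Rik, overlaps Tcp11 on the same strand and averaged 12.8 FPKM in testis.

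**Figure D1:**
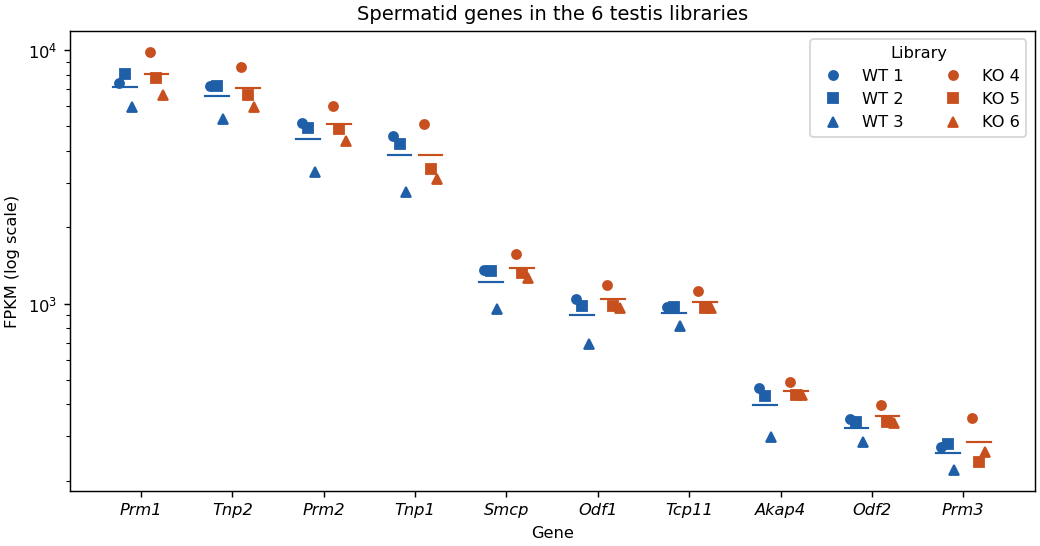
FPKM (log axis) of the 10 genes in each testis library, ordered by mean level; blue marks are WT 1 to 3, orange marks KO 4 to 6, and lines are group means of 3 libraries. WT 3 is the lowest and KO 4 the highest mark for each of the 10 genes, and the groups overlap for all 10.

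By mean FPKM over the 6 testis libraries the order was Prm1, Tnp2, Prm2, Tnp1, Smcp, Odf1, Tcp11, Akap4, Odf2 and Prm3, from 7599 ± 1330 to 271 ± 46.3 FPKM (SD, n = 6). Among neighbours in this order, the ranges over libraries stood clear of each other for Tnp1 above Smcp (2.97-fold between means) and for Tcp11 above Akap4 (2.26-fold). Odf1 exceeded Tcp11 in 4 of 6 libraries, and their means differed by 1.01-fold; every other neighbouring pair kept its order in 6 of 6 libraries although the ranges overlapped. The order depends on the gene lengths behind FPKM, such as 9919 bases for Odf2 and 894 for Prm2. Per read rather than per length, Prm2 took the largest mean share of testis reads at 0.470%, followed by Tnp2 (0.413%), Prm1 (0.392%) and the long Odf2 (0.373%). Together the 10 genes took 2.07% to 2.85% of all testis reads.

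The groups of 3 WT and 3 KO testis libraries overlapped for all 10 members, beside 11.9% of the 22341 genes tested whose groups did not. In limma, 0 of 10 members passed an adjusted p of 0.05, beside 0.00448% of all genes tested; 0 members and 922 genes in all had an unadjusted p under 0.05. Log2 fold changes, KO minus WT, were 0.17 ± 0.23 (SE) for Prm1, 0.20 ± 0.24 for Prm2 and 0.13 ± 0.17 for Prm3. Tnp1 gave 0.00 ± 0.28 and Tnp2 0.10 ± 0.23. Among the tail genes the values were 0.20 ± 0.18 for Smcp, 0.22 ± 0.19 for Odf1, 0.15 ± 0.12 for Odf2, 0.21 ± 0.18 for Akap4 and 0.15 ± 0.13 for Tcp11. Adjusted p lay between 0.871 and 1.00, and the 95% interval of each gene spanned 0. The intervals were narrowest for Odf2 (-0.14 to 0.44) and Tcp11 (-0.16 to 0.46) and reached -0.65 for Tnp1 and 0.76 for Prm2. All 10 estimates were above 0, with a median of 0.16, beside 56.5% of all genes tested and a median of 0.03. Without WT 3, 7 of 10 were above 0 and the median was 0.03, with a range of -0.23 (Tnp1) to 0.06 (Tcp11). Without KO 4 the median was 0.07, again with 7 of 10 above 0. Scaled to total reads, 9 of 10 were above 0 with a median of 0.08, beside -0.04 for all genes, and Tnp1 turned to -0.08.

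**Figure D2:**
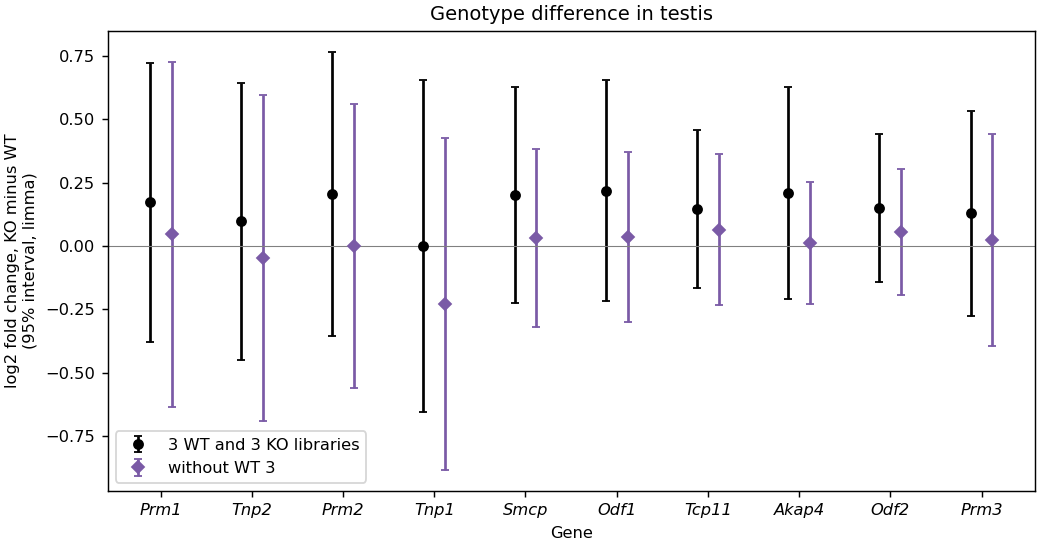
Log2 fold change (KO minus WT, limma on log2(FPKM + 0.1)) of each gene in testis with its 95% interval, from all 6 libraries (black circles) and without WT 3 (purple diamonds). Every interval spans 0, and the estimates move from a median of 0.16 to 0.03 when WT 3 is left out.

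Summed over the 10 genes, the level was 25793, 25524 and 20676 CPM in WT 1 to 3 and 28463, 24644 and 22485 CPM in KO 4 to 6. The KO mean exceeded the WT mean by 1200 CPM, which an exact two-sided permutation test did not separate from the spread between libraries (p = 0.7; 3 against 3 libraries cannot give less than 0.1). The difference was -461 CPM without WT 3 and -433 CPM without KO 4, so the sign of the difference rested on either library.

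What the 10 genes shared in testis was the way they varied from library to library. Against each gene's mean over the 6 libraries, on the log2(FPKM + 0.1) scale, the median of the members was 0.09 in WT 1, 0.06 in WT 2 and -0.39 in WT 3, and 0.32 in KO 4, 0.02 in KO 5 and -0.03 in KO 6. The median of all tested genes was -0.05 in WT 3 and 0.04 in KO 4. Over the 45 pairs of members Pearson's r across the 6 libraries ranged from 0.748 (Prm3 with Akap4) to 0.994 (Smcp with Odf1), with a median of 0.919. These are descriptions of 6 libraries in which a pair of libraries carries much of the spread. FPKM widened that spread beyond CPM, with reads over the library size implied by FPKM at 0.823 in WT 3 and 0.969 in KO 4. In CPM, Akap4 was highest in WT 1 (1551, against 1533 in KO 4) and Prm3 lowest in KO 5 (108, against 110 in WT 3). The other members kept WT 3 lowest and KO 4 highest in CPM. Tnp1 differed the most between libraries, with its highest library at 1.86 times the lowest, and Tcp11 the least, at 1.37 times.

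**Figure D3:**
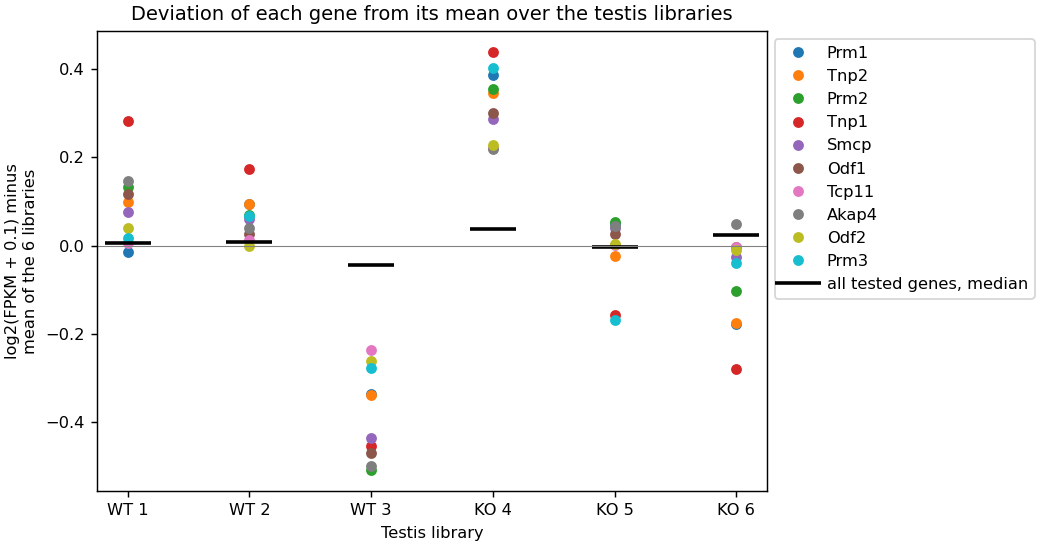
Deviation of each gene's log2(FPKM + 0.1) from its mean over the 6 testis libraries, by library; coloured points are the 10 genes and black bars the median of all tested genes. All 10 points lie between -0.51 and -0.24 in WT 3 and between 0.22 and 0.44 in KO 4, while the median of all genes stays at -0.05 and 0.04.

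For 8 lists of other cells the summed markers were highest in WT 3. Crisp1, an epididymal secretory gene, had 2.09, 19.2 and 133 FPKM in WT 1 to 3 and 0.03, 0.14 and 0.14 FPKM in KO 4 to 6. Summed CPM of the Sertoli cell list was 2523 in WT 3 against 1407 to 1922 in the other 5 libraries, of the Leydig cell list 1203 against 712 to 1065, and of the peritubular list 187 against 92.3 to 116. The blood list stood at 145 CPM in WT 3 against 28.2 to 40.1, the macrophage list at 123 against 65.4 to 85.8, the spermatogonia list at 322 against 204 to 246 and the spermatocyte list at 934 against 760 to 856. Every gene of these 8 lists had a read in testis, but single genes did not all follow the sums. The epididymis gene Rnase10 had 3.05, 2.40 and 1.67 FPKM in WT 1 to 3 and 2.92, 3.10 and 0.828 FPKM in KO 4 to 6. The peritubular gene Tagln was lowest in WT 3, at 0.185 FPKM against 0.356 to 0.653. The macrophage gene Adgre1 was at 1.35 FPKM in WT 3 against 1.31 to 2.11, and the Leydig gene Lhcgr at 1.92 against 1.54 to 5.11. The part of these 8 lists in the low spermatid values of WT 3 was not tested. WT 3 was also highest for the hepatocyte list, at 36.9 CPM against 17.7 to 33.6. Lists of other spermatid genes were divided. The mitochondrial sheath sum was highest in WT 3, at 2809 CPM against 2497 to 2615. The spermatid chromatin sum was lowest there, at 2538 CPM against 3066 to 3220. In KO 4, the library highest for the members, the sums were lowest of the 6 for spermatogonia (204 CPM), Sertoli (1407 CPM), Leydig (712 CPM) and peritubular genes (92.3 CPM).

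The genes named next lie outside the set and were among those that followed it most closely of 5573 genes with a mean of at least 10 FPKM in testis. Their r with the mean of the members over 6 libraries was 0.997 for Gm498, 0.996 for Ttc24, 0.995 for Plekho2 and 0.994 for Gapdhs. Over all 5573 genes the median r was 0.430 and the 90th percentile 0.902. Gapdhs, the glycolytic enzyme of the fibrous sheath, read 677, 682 and 497 FPKM in WT and 801, 650 and 634 FPKM in KO.

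The balance between protamines and transition proteins was read within each library, where a common shift of the spermatid genes cancels. These 4 ratios of FPKM were chosen after the data had been seen. Prm1 over Prm2 was 1.44, 1.62 and 1.80 in the WT libraries and 1.63, 1.59 and 1.51 in the KO libraries (exact permutation p = 0.8). Tnp1 over Tnp2 was 0.635, 0.591 and 0.517 in WT and 0.597, 0.510 and 0.520 in KO (exact permutation p = 0.5). The ratio of Prm1 and Prm2 to Tnp1 and Tnp2 was 1.06, 1.13 and 1.14 in WT and 1.16, 1.26 and 1.21 in KO, so that each KO library exceeded each WT library. Its means were 1.11 ± 0.04 and 1.21 ± 0.05 (SD, n = 3 each); the exact two-sided permutation p was 0.1, the smallest this design allows, and 0.4 after Benjamini-Hochberg adjustment over the 4 ratios. Akap4 over Odf1, fibrous sheath against outer dense fibre, was 0.440 ± 0.009 in WT and 0.438 ± 0.021 in KO (exact permutation p = 0.9).

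**Figure D4:**
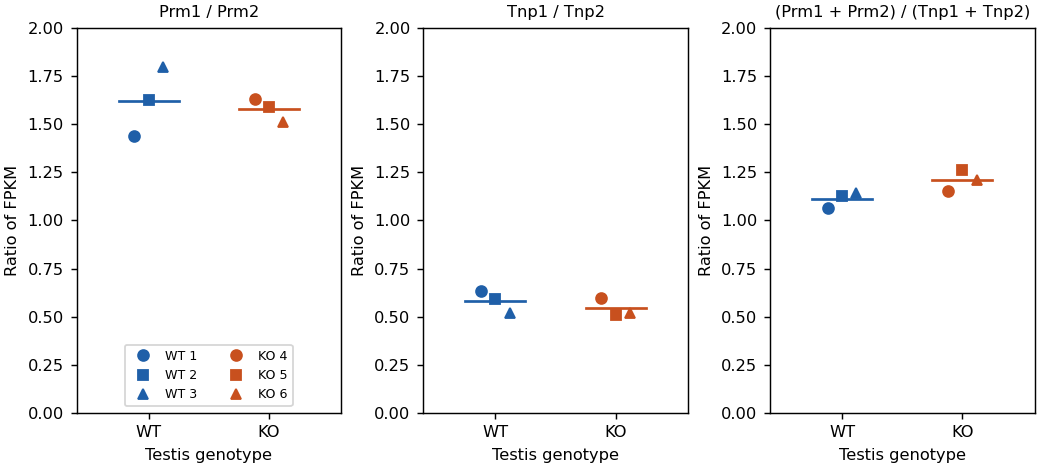
Ratios of FPKM within each testis library for Prm1 to Prm2, Tnp1 to Tnp2 and the summed protamines to the summed transition proteins; marks are single libraries and lines the means of 3. The third ratio is 1.06 to 1.14 in WT and 1.16 to 1.26 in KO without overlap, and the other 2 overlap.

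Other genes of the late spermatid programme were read in the same fit, and 0 genes of any of the following lists passed the adjusted p in testis. Among 11 spermatid chromatin genes, 7 had a positive estimate (median 0.10). Hist1h2ba, a testis histone H2B, was at 5.39 ± 1.17 FPKM in WT and 7.50 ± 0.94 FPKM in KO, and Psme4, the proteasome activator that acts in histone removal, at 66.0 ± 15.7 and 81.9 ± 3.26 FPKM. Without WT 3 the list had 5 positive estimates and a median of -0.05. Of 12 regulators of spermatid genes, 9 had a positive estimate (median 0.05), and 6 without WT 3. Rfx2, a transcription factor of spermatids, had a mean of 102 ± 14.7 FPKM in WT and 118 ± 2.73 FPKM in KO, and Crem 25.6 ± 0.58 and 28.3 ± 1.86 FPKM. All 10 other genes of the outer dense fibres and fibrous sheath had positive estimates with a median of 0.06, which became 3 of 10 and -0.01 without WT 3. Akap3, the partner scaffold of Akap4, was at 242 ± 43.6 FPKM in WT and 267 ± 17.2 FPKM in KO. Among 6 mitochondrial sheath genes 5 were positive with and without WT 3, with medians of 0.11 and 0.04. Gk2, a glycerol kinase of that sheath, was at 250 ± 12.6 FPKM in WT and 272 ± 14.2 FPKM in KO.

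In liver and brain, Odf2 set itself apart from the other 9 members. Liver libraries held 262, 264 and 261 reads of Odf2 in WT and 211, 300 and 236 in KO, and brain libraries 1901, 1748 and 1906 in WT and 1547, 1806 and 1920 in KO. In CPM the WT testis level was 295-fold above that of WT liver and 44.3-fold above that of WT brain. Its log2 fold change was -0.00 ± 0.14 in liver and -0.02 ± 0.07 in brain (limma adjusted p 1.00 in both). For Tcp11, WT testis exceeded WT brain by 2667-fold, and by 4481-fold without brain WT 3, which held 33 of the 55 reads. For Prm1 the fold was 5450, and 13242 without that library. With 0 reads in the 3 WT livers together, the testis level was at least 40766-fold higher for Tnp1, 29132-fold for Akap4, 26791-fold for Smcp, 24093-fold for Odf1 and 2545-fold for Prm3, each against a floor of 3 reads over those libraries. These bounds cover counting error only.

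Reads of the 9 members without Odf2 were few but unevenly spread. Liver held 6, 7 and 8 reads in WT 1 to 3, against 1, 107 and 112 in KO 4 to 6, each among at least 18990130. Brain held 17, 21 and 144 reads in WT 1 to 3, against 25, 257 and 120 in KO 4 to 6. Thus KO 5 and KO 6 were high in liver, and WT 3, KO 5 and KO 6 in brain, while KO 4 stayed with the low libraries in both tissues. As a share of the mean WT testis CPM, the liver values were 0.00148%, 0.00156% and 0.00182% in WT and 0.000259%, 0.0223% and 0.0289% in KO. The brain values were 0.00360%, 0.00469% and 0.0321% in WT and 0.00592%, 0.0561% and 0.0272% in KO. WT and KO overlapped in both tissues, for the sum and for each of the 10 genes, beside 9.52% of tested genes without overlap in liver and 9.08% in brain. Of the 10 genes, 1 in liver and 5 in brain passed the read filter of the tested genes, so the sets compared are unlike. The exact two-sided permutation p of the summed CPM was 0.4 in liver and 0.5 in brain.

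The high libraries held nearly the whole set. Prm2 had 17 and 23 reads in liver KO 5 and KO 6, against 4, 2 and 1 in WT 1 to 3 and 0 in KO 4. Tnp2 had 27 and 12 reads there, Prm1 15 and 13, Odf1 13 and 10, Akap4 10 and 11, and Tnp1 12 and 8. Of Tnp1, Smcp, Odf1 and Akap4 no read was found in WT 1 to 3 or KO 4 of liver; 3 reads, the limit that a count of 0 allows, correspond to 0.136 to 0.158 CPM in those libraries. In brain, Prm1 had 34, 61 and 21 reads in WT 3, KO 5 and KO 6, Prm2 21, 46 and 27, and Tnp2 24, 46 and 17. The other brain libraries held 6 or 7 reads of Prm1 and 0 or 1 of Prm2, Tnp1, Tnp2 and Akap4. Liver KO 5 and KO 6 held reads of 9 and 8 of the 9 genes, and the 3 high brain libraries of 8, 9 and 9.

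In the 5 high libraries Prm1, Prm2 and Tnp2 each gave 10.7% to 25.2% of the reads of the 9 genes, beside 17.4% to 23.2% in the testis libraries. Prm2 gave 15.9% and 20.54% of the 9 genes' reads in liver KO 5 and KO 6, and 20.8% to 23.2% in the testis libraries. Most shares of Prm1, Prm2 and Tnp2 lay outside the testis range of the gene itself. These shares rest on 12 to 61 reads each, so their counting error is wide beside the narrow testis ranges. Whether the composition differs from that of testis was not tested. Prm1 gave 11.6% to 23.7%, beside 17.4% to 19.6% in testis, and Tnp2 10.7% to 25.2%, beside 19.0% to 20.6%. Other genes also lay outside their testis range of shares. In brain, Tcp11 gave 22.9%, 16.3% and 30.8% of these reads in WT 3, KO 5 and KO 6, beside 9.91% to 12.01% in testis, and brain WT 1, WT 2 and KO 4 held 7, 15 and 18 reads of it. Odf1 gave 4.17%, 3.89% and 2.50% in the same 3 libraries, beside 5.40% to 6.12% in testis, and Tnp1 4.86%, 7.39% and 2.50%, beside 7.85% to 10.03%. In liver, Smcp gave 16.1% in KO 6, beside 6.07% to 6.67% in testis, and Odf1 12.1% in KO 5. These shares of Odf1, Tnp1 and Smcp rest on 3 to 19 reads each. Ependymal cells, which carry motile cilia, had a marker list at 31.3 to 35.0 summed CPM in WT brain and 36.7 to 43.4 in KO brain, with reads of all 6 genes; their part in the Tcp11 reads was not tested.

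Alb, a hepatocyte gene, was highest in the same 3 brain libraries, with 1, 3 and 611 reads in WT 1 to 3, against 24, 270 and 345 in KO 4 to 6. The sum of the 9 hepatocyte genes, led by Ttr in brain, did not follow Alb. It was 481, 724 and 696 CPM in WT 1 to 3 and 684, 656 and 645 CPM in KO 4 to 6. The neuronal gene Snap25 had 0, 0 and 2 reads in WT liver and 0 in each KO liver. In testis it had 0, 1 and 12 reads in WT 1 to 3, against 3, 28 and 11 in KO 4 to 6. Transfer of material or reads between tissues was not tested.

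**Figure D5:**
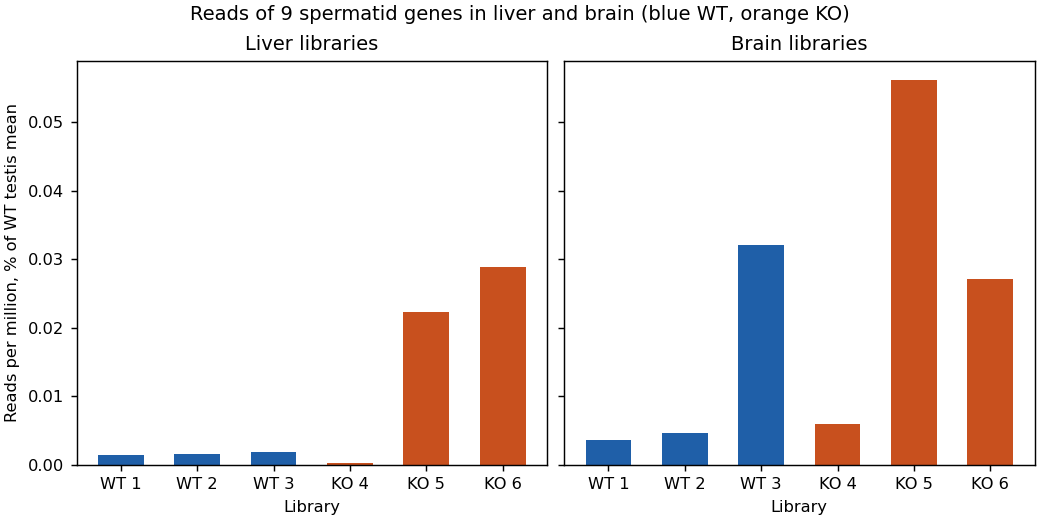
Summed CPM of the 9 members other than Odf2 in each liver and brain library (blue WT, orange KO), as a percentage of the mean in WT testis. Liver KO 5 and KO 6 (0.0223% and 0.0289%) and brain WT 3, KO 5 and KO 6 (0.0321%, 0.0561% and 0.0272%) stand above the other libraries of their tissue.

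A germ cell gene whose genotype groups did not overlap gave another pattern. Mael, a piRNA pathway gene, had 0 reads in each WT liver and 409, 237 and 392 in KO 4 to 6, and 3, 0 and 10 reads in WT brain against 448, 288 and 492 in KO. It was thus high in KO 4, where the spermatid genes were not. Slc25a31, a germ cell ADP/ATP carrier, had 0, 4 and 3 reads in WT liver and 153, 96 and 145 in KO liver. Both were chosen with their values known.

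In the tests by tissue, 1 of 10 members (Odf2) passed the filter on low reads in liver and 5 in brain (Prm1, Prm2, Tnp2, Tcp11 and Odf2), Prm1, Prm2 and Tnp2 through the 3 high libraries. None was called, beside 0.0212% of 14124 genes in liver and 0.0837% of 17922 genes in brain. In brain, log2 fold changes were 0.80 ± 0.83 for Prm1, 1.73 ± 1.17 for Prm2, 1.27 ± 1.43 for Tnp2 and 0.79 ± 0.42 for Tcp11, with limma adjusted p of 1.00 for each. These values rested on single libraries: leaving out each in turn gave 0.05 to 1.55 for Prm1, 0.98 to 2.88 for Prm2, 0.22 to 2.71 for Tnp2 and 0.40 to 1.21 for Tcp11, the lowest without KO 5 (for Tcp11 without WT 1) and the highest without KO 4 (for Tcp11 without WT 3). The pseudocount also set them, with Prm2 at 3.47 for 0.01 and at 0.59 for 1. The difference between the KO effects of testis and brain was tested for these 5 genes and that of testis and liver for Odf2, and none was called. Over all genes, 10 of 15962 were called for testis minus brain and 6 of 13133 for testis minus liver. At such low shares, no call among so few members is uninformative about them. For Odf2 the difference was 0.17 ± 0.14 against brain and 0.15 ± 0.15 against liver (log2).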

How the data were processed

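The authors deposited FPKM per gene for 52636 genes in each of 18 libraries; the submitters' processing notes name mm10, HISAT2 2.0.5, featureCounts 1.5.0-p3 and DESeq2 1.16.1. FPKM times gene length gave whole reads for 100% of values (tolerance 0.01), which supplied depth, CPM and a filter of at least 10 reads in at least 3 of 6 libraries. Reads over the implied library size were 0.823 to 0.969 in testis, 1.44 to 1.52 in liver and 0.806 to 0.835 in brain, so FPKM was compared only within a tissue. Each tissue was fitted with limma 3.58.1 (R 4.3.3, mean-variance trend) on log2(FPKM + 0.1), a scale that understates changes of low genes, with Benjamini-Hochberg adjustment over all genes tested. KO effects of 2 tissues were compared by interaction in their 12 libraries. On simulated reads, limma recovered 52% of 2-fold and 96% of 4-fold changes in testis (22341 genes), with 7 false calls among 155. The simulation gave every gene and library the same dispersion and held no library that stood apart as testis WT 3 did. Recovery in the real libraries may therefore be lower. No 2 libraries were within sampling noise of each other.

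Members and lists were chosen with earlier results of these data known. Named genes were Pcgf6, the members, up to 2 genes per list by testis p, the 5 genes most like the members (1 of them is not reported here), and leading tissue markers; exceptions are stated. The labels repeat library numbers across tissues. Deviations of same-numbered testis and liver libraries correlated at 0.118 to 0.228, and those of testis and brain at -0.003 to 0.242. Brain and liver gave 0.055 to 0.236. Libraries of different numbers were not compared across tissues, so these values cannot show whether the numbers pair any tissues. Alternatives varied pseudocount, filter, scaling, model and libraries. Other steps used Python 3.11.15 with scipy 1.17.1, pandas 2.3.3, numpy 2.4.6 and, for figures, matplotlib 3.10.9.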

Additional observations from a re-analysis of the deposited data

How the results depend on the processing

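No member was called in any of 16 settings in testis (160 tests, smallest limma adjusted p 0.721), liver (34 tests, 0.345) or brain (90 tests, 0.902). Genes called in testis (1) became 0 without the read filter, 2 with limma voom, 2 with quality weights and 37 in a single fit over 18 libraries, and 0 to 3 when a library was left out. Liver (3) gave 107 in the single fit and 2 to 5 when a library was left out, and brain (15) gave 40 and 8 to 12. The brain minus liver interaction called 0 genes, 1 with a pseudocount of 1, and 0 to 2 without a library number. With the library number as a replicate block, 5 genes were called for testis minus liver (6 without the block), 10 for testis minus brain (10 without) and 0 for brain minus liver (0 without), and no member call changed.

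The summed level of the 10 genes differed by -461 to 2556 CPM in testis when a library was left out, and in brain by -1.61 to 7.51 CPM. Tnp1 in testis turned to -0.081 scaled to total reads, -0.079 scaled to the other genes, -0.026 at the upper quartile, -0.083 with voom and -0.25 with quality weights; the latter also gave -0.0060 for Prm2 and -0.071 for Tnp2. Odf2 in liver became 0.0056 at the upper quartile and 0.028 with quality weights. When a library was left out, testis values ranged from -3.76e-05 to 0.32 for Prm2, -0.040 to 0.25 for Prm3, -0.23 to 0.14 for Tnp1 and -0.052 to 0.21 for Tnp2, and Odf2 from -0.049 to 0.055 in liver and -0.074 to 0.027 in brain. The testis minus brain difference of Prm1 ranged from -1.53 to 0.14 and the brain minus liver difference of Odf2 from -0.068 to 0.028. The KO minus WT difference ranged from -0.13 to 0.047 for Prm1 over Prm2 and from -0.011 to 0.0091 for Akap4 over Odf1.
The cause of these shifts was not tested. Depth bounds the traces: each rests on at most 257 reads per library, and 3 libraries per group bound every test.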

Other observations

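Genes of other sperm structures were read in testis, where 0 genes of each list were called. Of 17 axoneme and sperm ion channel genes 16 were above 0 with and without WT 3 (median log2 fold change 0.16 and 0.11), and of 11 acrosome genes 11 in both (0.14 and 0.10), beside a median of 0.03 over all genes tested. Catsper1, a subunit of the sperm calcium channel, was at 51.4, 52.1 and 38.1 FPKM in WT 1 to 3 and 54.6, 52.2 and 64.0 FPKM in KO 4 to 6. Acr, the acrosomal protease acrosin, was at 115, 116 and 109 FPKM in WT and 131, 117 and 129 FPKM in KO, a gene for which WT 3 lay close to the other WT libraries. Manchette and sperm head genes were above 0 in 9 of 10 tested and in 4 without WT 3 (medians 0.08 and -0.03). Spermatocyte genes were above 0 in 3 of 9 (median -0.08 with and without WT 3). Spermatogonia genes were above 0 in 3 of 11 (median -0.16, and -0.07 without WT 3, the library with the highest spermatogonia sum), led by Stra8, a retinoic acid target at the onset of meiosis, with 9.003 ± 1.70 FPKM in WT and 6.52 ± 0.98 FPKM in KO.

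Prm1 was read in every brain library, with 7 and 6 reads in WT 1 and WT 2 and 6 in KO 4, where Prm2 had 0, 0 and 1. Prm1 in testis had 248678 reads over the 3 WT libraries and Prm2 296643.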
